A study of Mus musculus with 9 samples.

Results

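The genes described here are the 394 genes of mouse chromosome 14 among the 8742 genes in 3 tables of changed genes deposited for a study of esophageal epithelial organoids. They were chosen by their chromosome alone from the union of the 3 tables, but a gene entered a table only if the authors' own comparison of that pair of groups gave an adjusted p under 0.05. The same libraries and contrasts therefore selected the members and give the values below, so every value is a description and no test of the members is given. Of the 394 genes, 373 were protein-coding and 21 were not, and the protein-coding ones were 41.4% of the 902 annotated on the chromosome in GENCODE M21. The table of PN against WT held 283 of them, that of PCN against WT 215 and that of PCN against PN 334. All 3 tables shared 108, and 64 stood in 1 table only. Counts in all 9 libraries were on hand for 330 genes.

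Organoids are cultures in which epithelial cells grow as small self-organised bodies. Bulk RNA was sequenced from 3 groups of 3 libraries, all untreated and harvested on day 7 after seeding. WT organoids had the wild-type genotype. For PN the labels give a knockout, of Trp53 with Notch1, and for PCN the same pair of genes with Cdkn2a added. The labels give neither the kind of edit nor whether a line was 1 clone, and no label ties the libraries of a group to different cultures or animals, so their spread may be technical. The recovered WT totals ran from 14695420 to 15093994 counts, those of PN from 16857744 to 18912526 and those of PCN from 17422590 to 20198041. Of the labelled genes, Trp53 was at 120 ± 1.66 CPM in WT, against 2.61 ± 0.546 in PN and 3.08 ± 0.774 in PCN, and Notch1 at 244 ± 31.9, against 148 ± 6.78 and 71.3 ± 5.26, both lower in the groups labelled as their knockouts. RNA of Cdkn2a was instead highest in the group labelled as its knockout, at 9.0 ± 2.17 CPM in WT, against 22.1 ± 0.600 in PN and 65.2 ± 4.35 in PCN, so PN and PCN stand below for the libraries that carry those labels. Keratins of the esophageal lining marked all 3 groups. The differentiation keratin Krt13 was at 15876 ± 645 CPM in the WT libraries, 2099 ± 79.6 in those of PN and 2791 ± 77.2 in those of PCN, and Krt4 was likewise highest in WT. The basal keratin Krt14 was at 1959 ± 278, 1965 ± 81.3 and 2433 ± 83.5, and the basal factor gene Trp63 at 486 ± 22.8, 698 ± 36.2 and 649 ± 39.6, while Krt5 had no WT values and Sox2 none in PN. Of 10 markers of leukocytes, endothelium, fibroblasts, muscle and glia, 1 was listed, the macrophage marker Cd68, at 107 ± 12.8, 25.2 ± 1.61 and 16.1 ± 0.970 CPM. Absence from the tables says nothing of the level of the other 9.

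RNA from a chromosome is usually made from both of its copies, and the number of copies is one of the things that set the level of the many genes on it together. Other influences, such as transcription factors, chromatin state and RNA turnover, can act on single genes or on many genes at once. In squamous epithelium, Notch signalling is known to drive basal cells to differentiate, p53 guards against the propagation of damaged genomes, and the proteins encoded by Cdkn2a restrain the cell cycle. Copy number is not among the values used here, and in bulk RNA a lower level can come from fewer cells of a type or from less RNA per cell, which cannot be told apart.

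Levels are CPM, counts scaled to the recovered library total, as mean ± SD over 3 libraries. Log2 fold changes are from edgeR, with a standard error worked back from its F statistic. The chromosome 14 shift is the median log2 fold change of its genes minus that of the listed genes on the 17 autosomes other than 12 and 14, which serve as the reference. Chromosome 12 was left out because its genes before 95 Mb also moved together in PCN. Their medians, relative to the reference, were -1.0 in PCN against WT and -0.90 in PCN against PN. In PN against WT the median was only -0.14. The departure of a gene is its log2 fold change minus the chromosome 14 median in that comparison.

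The median listed chromosome 14 gene was lower in PN than in WT libraries, and about level with WT in PCN libraries. A median counts each gene alike, so it does not give the summed RNA of the chromosome. The median log2 fold change was -0.57 in PN against WT over 339 genes, -0.02 in PCN against WT over 337 genes and 0.60 in PCN against PN over 350 genes. Set against the reference autosomes, the shifts were -0.60, -0.02 and 0.60, or 0.660, 0.987 and 1.52 as ratios. The members missing from each of these counts had no values in 1 of the groups or were removed by the filter on low counts.

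Every library showed the shift of its group. Against the mean of the WT libraries, over 317 chromosome 14 genes and 5337 reference genes, the shift was -0.57, -0.62 and -0.63 in PN libraries 1 to 3, -0.05, -0.08 and -0.08 in PCN libraries 1 to 3, and -0.03 to 0.03 in the WT libraries. Group means were -0.60 ± 0.03 in PN and -0.07 ± 0.02 in PCN, so the PN libraries lay far from the other 6, and the PCN libraries lay just under the WT libraries. Against the mean of the PN libraries, PCN stood at 0.59 ± 0.02 and WT at 0.60 ± 0.03, and their libraries overlapped, at 0.56 to 0.60 and 0.58 to 0.63.

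**Figure D1:**
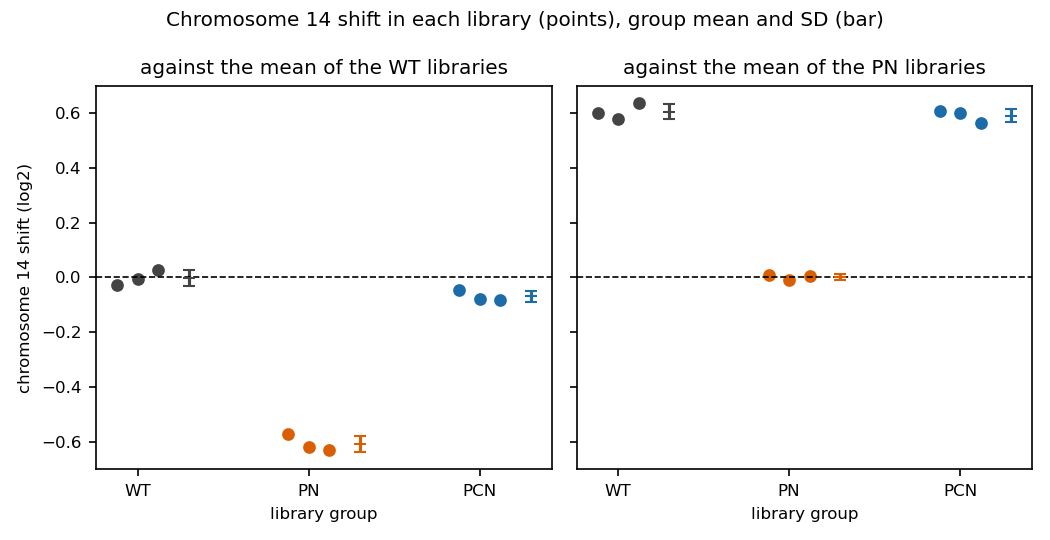
Chromosome 14 shift of each of the 9 libraries on a log2 scale (vertical axis) by group (horizontal axis), against the mean of the WT libraries (left) and of the PN libraries (right), with bars for the group mean and SD. The 3 PN libraries lie between -0.63 and -0.57 on the left, and the WT and PCN libraries between 0.56 and 0.63 on the right.

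Compared with single reference autosomes, chromosome 14 stood furthest apart in PCN against PN. The reference autosomes had medians within -0.04 to 0.09 of the reference there, against 0.60 for chromosome 14. Across PN against WT they spread from -0.41 to 0.31, and the shift of -0.60 lay outside that range. Over genes in both other tables, a set chosen after seeing the data, the shift was -0.43. The range of single reference autosomes was not worked out for that set. Across PCN against WT the reference autosomes spread from -0.42 to 0.28, and chromosome 14, at -0.02, lay inside that range. Its share of listed genes lay outside the reference range in PCN against PN alone. The PCN against PN table held 36.1% of the annotated protein-coding genes of chromosome 14, against 11.0% to 17.3% for the reference autosomes, while its share was 30.0% in PN against WT (reference 22.7% to 32.4%) and 23.1% in PCN against WT (reference 22.4% to 33.3%).

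**Figure D2:**
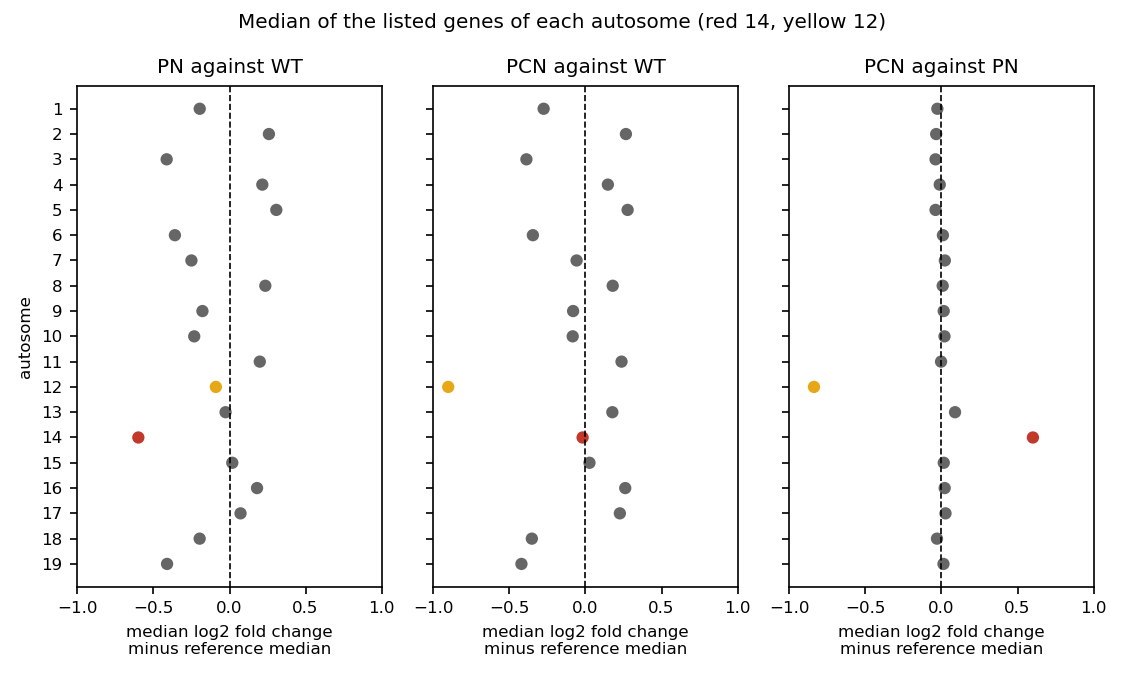
Median log2 fold change of the listed genes of each of the 19 autosomes minus the reference median (horizontal axes) in the 3 comparisons. Chromosome 14 (red) lies at -0.60, -0.02 and 0.60, and chromosome 12 (yellow) is the other chromosome away from 0 in PCN against PN.

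Calls and overlaps of single genes were counted beside those of all genes tested. In PN against WT, 264 of 339 genes had an edgeR adjusted p under 0.05 and were lower, 16 were higher and 59 were neither, where 46.0% of all 7095 genes tested were called lower and 42.6% higher. All 3 PN libraries lay below all 3 WT libraries for 268 genes and above them for 21, against 46.6% and 44.0% of all genes tested. In PCN against WT, 110 of 337 genes were called lower, 102 higher and 125 neither, with 46.7% of 7094 genes lower and 42.9% higher over all chromosomes. The libraries did not overlap for 116 genes that were lower and 113 that were higher in PCN, beside 46.9% and 44.1% overall. In PCN against PN, 324 of 350 genes were called higher, 5 lower and 21 neither, where 28.0% of 6844 genes tested were called higher and 26.6% lower. The libraries of 324 higher and 5 lower genes had no overlap between the libraries, beside 31.8% and 30.2% overall. These counts rest on genes that the contrasts themselves selected, and nothing is read from them.

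The genes lay more tightly around their median on chromosome 14 than on the pooled reference autosomes in each comparison. In PCN against PN the interquartile range was 0.28 log2 units, against 0.41 on the reference autosomes, and 297 of 350 genes (84.9%) lay within 0.5 of the median, against 79.4%. The ranges in PN against WT were 0.66 and 1.28, and 219 of 339 genes (64.6%) lay within 0.5, against 41.4%. In PCN against WT they were 0.81 and 1.31, and 194 of 337 genes (57.6%) lay within 0.5, against 38.0%. The genes of chromosome 12 before 95 Mb had interquartile ranges of 0.33, 0.76 and 0.69 in the same order. The last was narrower than that of chromosome 14. Each table was selected on its own contrast, and the part of that selection in these widths was not tested. In PCN against PN the listed gene nearest the authors' threshold was Armh4, with an adjusted p of 0.0489 in the authors' deposited table and a log2 fold change of 0.45, and the gene nearest it among the 21 fitted but not listed was Fam25c, at 0.95. The corresponding pairs were Siah3 (0.0488 in the authors' deposited table, log2 fold change 0.56) and Lrch1 (-0.27) in PN against WT, and Wnt5a (0.0475 in the authors' deposited table, log2 fold change -0.21) and Dleu2 (0.49) in PCN against WT.

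Departures of more than 1 log2 unit were few in PCN against PN, with 12 genes above the shift (3.43%) and 5 below it (1.43%), beside 5.53% and 3.33% around their own median on the reference autosomes. Against WT they were more frequent, with 15 above and 36 below in PN (4.42% and 10.6%, reference 6.69% and 19.99%) and 28 above and 31 below in PCN (8.31% and 9.20%, reference 8.78% and 19.5%). The reference genes thus also had fewer such departures in PCN against PN than against WT. The shift also ran along the whole chromosome. In bins of 20 Mb with at least 20 genes, the medians ranged from 0.48 to 0.62 in PCN against PN, from -0.75 to -0.52 in PN against WT and from -0.39 to 0.04 in PCN against WT. The first 20 Mb gave the lowest median in each, at 0.48 over 28 genes, -0.75 over 27 genes and -0.39 over 26 genes. In PN against WT the bin from 100 to 120 Mb was nearly as low, at -0.74 over 22 genes. The longest runs of neighbours lying more than 0.5 to the same side of the median were short. Pinx1, Sox7 and Rp1l1 formed 1 above it in PN against WT (63860364 to 64035025, GRCm38). Adamdec1, Adam28, Slc25a37 and Entpd4b formed 1 below it in PCN against WT (68563380 to 69585520).

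**Figure D3:**
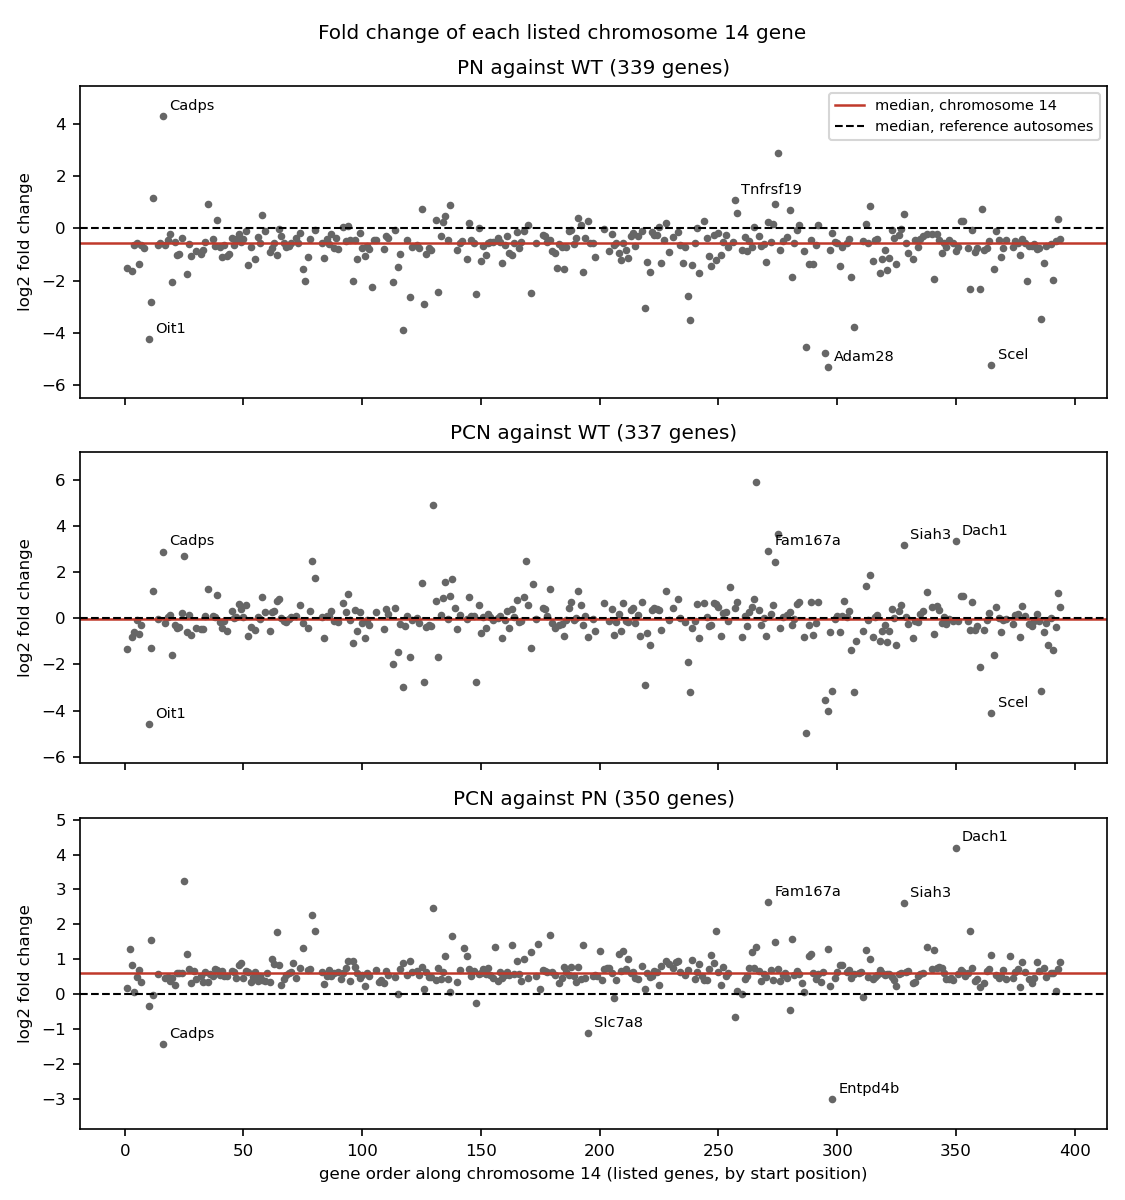
Log2 fold change (vertical axes) of each listed chromosome 14 gene in its order along the chromosome (horizontal axis) in the 3 comparisons, with the chromosome 14 median (red) and the reference median (dashed). In PCN against PN the genes form a band around 0.60 with 10 genes at or under 0, and several genes that depart are named.

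Split into 3 equal groups by mean CPM, the genes with counts in all 9 libraries had medians in PCN against PN of 0.65 for the least abundant, 0.59 for the middle group and 0.54 for the most abundant. The same groups had medians of -0.52, -0.57 and -0.64 in PN against WT, and of 0.16, -0.01 and -0.11 in PCN against WT. The more abundant genes thus had the lower medians in each comparison.

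Promoters are shown for 4 genes that the results turn on, the differentiation genes Scel and Tgm1, both far below the shift in PN and PCN, and Dach1 and Cadps, which departed in opposite directions between PCN and PN. RefSeq (GRCm38.p6) gave promoter sequence for 296 of the 394 genes, and each line gives the 250 bases before the annotated start, 5′ to 3′ on the gene's strand. Capitals mark TGGGAA, the core letters recognised by RBPJ, the DNA-binding partner of Notch, and TGANTCA, recognised by the AP-1 factors, both searched on both strands.
Scel, chr14:103513091-103513340, + strand: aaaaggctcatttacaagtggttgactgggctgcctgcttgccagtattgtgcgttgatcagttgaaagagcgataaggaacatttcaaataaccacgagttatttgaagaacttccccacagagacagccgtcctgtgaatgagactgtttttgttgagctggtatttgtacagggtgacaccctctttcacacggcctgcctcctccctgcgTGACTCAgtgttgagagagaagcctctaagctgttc
Tgm1, chr14:55713493-55713742, - strand: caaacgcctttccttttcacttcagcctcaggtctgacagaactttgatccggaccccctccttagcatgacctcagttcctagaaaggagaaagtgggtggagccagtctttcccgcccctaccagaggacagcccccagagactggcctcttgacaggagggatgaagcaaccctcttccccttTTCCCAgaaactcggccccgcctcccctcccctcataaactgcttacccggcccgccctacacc
Dach1, chr14:98169766-98170015, - strand: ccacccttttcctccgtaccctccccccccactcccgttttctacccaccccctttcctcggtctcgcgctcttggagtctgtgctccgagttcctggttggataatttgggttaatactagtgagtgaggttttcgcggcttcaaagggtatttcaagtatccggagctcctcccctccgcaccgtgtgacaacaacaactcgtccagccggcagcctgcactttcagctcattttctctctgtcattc
Cadps, chr14:12823080-12823329, - strand: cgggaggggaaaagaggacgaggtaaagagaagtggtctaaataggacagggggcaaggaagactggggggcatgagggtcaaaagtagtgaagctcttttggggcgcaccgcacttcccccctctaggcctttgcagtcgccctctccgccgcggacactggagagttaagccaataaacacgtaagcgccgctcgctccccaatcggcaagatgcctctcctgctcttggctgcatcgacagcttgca
The Scel window held 1 AP-1 match and the Tgm1 window 1 TGGGAA match on the opposite strand, while neither motif was in the Dach1 and Cadps windows. Over 32851 promoter windows of that length, 21.6% held TGGGAA and 6.75% held TGANTCA. A match to either motif shows no binding. The Tgm1 start used here lies 434 bases from the gene's start in the deposited tables.

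The calls of the role lists below stand beside those of all fitted chromosome 14 genes. Of these, 77.9% were called lower and 4.72% higher in PN against WT. The shares were 32.6% and 30.3% in PCN against WT, and 1.43% and 92.6% in PCN against PN. Counts near these shares are not read as results about a role. Genes of epithelial differentiation and cell junctions were lowest against WT. All 13 with values were called lower in PN, with a median of -2.31, where the chromosome median was -0.57. In PCN against WT, 10 of 14 were lower, 1 was higher and 3 were neither, with a median of -1.33. In PCN against PN, 9 of 12 were higher, 1 lower and 2 neither, with a median of 0.62, close to the chromosome median of 0.60. Scel (103513342 to 103612797) encodes sciellin, a protein of the cornified envelope, the tough layer under the membrane of terminal squamous cells. It stood at 171, 178 and 151 CPM in WT, 4.69, 4.0 and 4.49 in PN and 10.001, 10.4 and 8.54 in PCN. The 3 groups did not overlap, and PCN lay between PN and WT but far nearer to PN. Its log2 fold change was -5.24 ± 0.11 in PN (37.9 times lower than WT), -4.11 ± 0.11 in PCN and 1.13 ± 0.15 in PCN against PN.

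Tgm1 (55700009 to 55713926) encodes transglutaminase 1, which crosslinks the proteins of that envelope. It stood at 503, 541 and 505 CPM in WT, 70.2, 59.4 and 58.0 in PN and 70.5, 69.7 and 65.8 in PCN. PN and PCN overlapped, at 8.27 and 7.52 times under WT, and the log2 fold change of 0.14 ± 0.07 between them was 0.46 under the chromosome shift. The membrane-binding protein gene Anxa8 had WT libraries at 90.1 ± 2.82 CPM, PN libraries at 6.08 ± 1.18 and PCN libraries at 11.2 ± 1.44. Gjb2, which encodes the gap junction protein connexin 26, stood at 330 ± 32.1, 55.6 ± 4.12 and 90.0 ± 8.64 CPM. Their PCN libraries lay above all PN libraries, by 0.89 ± 0.15 and 0.69 ± 0.07 on the log2 scale, departures of 0.29 and 0.09. Lgals3, which encodes the sugar-binding protein galectin-3, stood at 393, 312 and 224 CPM in WT, 54.9, 56.2 and 50.3 in PN and 42.8, 45.7 and 47.1 in PCN. It was the called gene of this list that was lower in PCN than in PN, at -0.25 ± 0.07, and its 3 groups did not overlap.

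Klf5, by contrast, encodes a transcription factor of proliferating epithelium and followed the chromosome in all 3 comparisons. Its levels were 371, 373 and 322 CPM in WT, 214, 215 and 215 in PN and 313, 341 and 326 in PCN. PN lay under both other groups, and PCN and WT overlapped. The log2 fold changes were -0.73 ± 0.07, -0.12 ± 0.08 and 0.61 ± 0.05, departures of -0.16, -0.10 and 0.01. Ajuba, which encodes an adaptor at cell junctions, behaved alike, at 205 ± 16.9, 136 ± 2.62 and 193 ± 7.80 CPM.

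**Figure D4:**
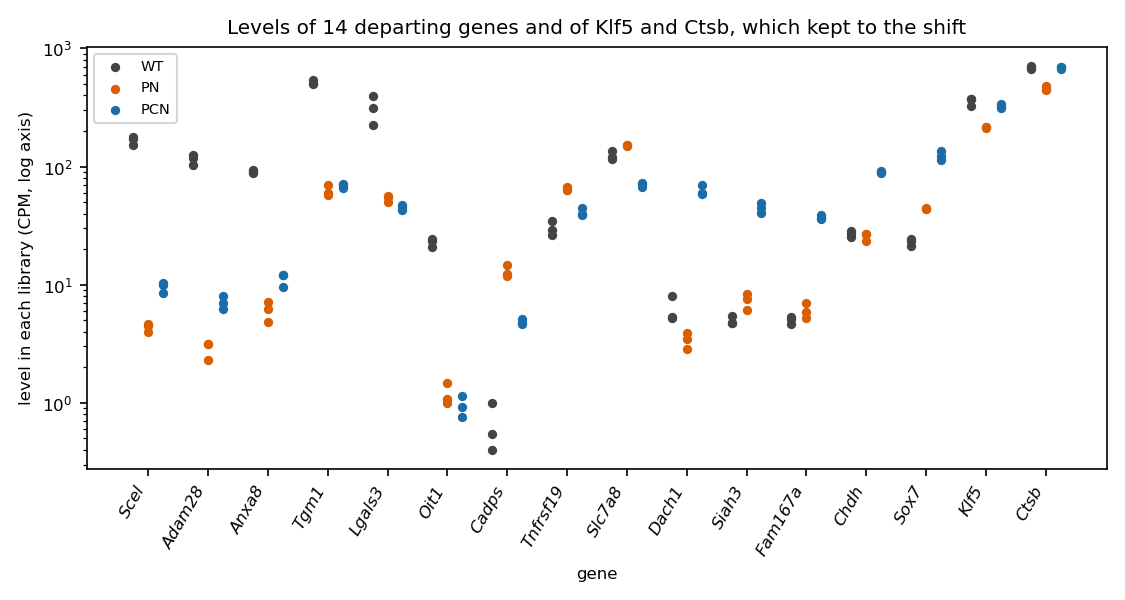
Level of 16 chromosome 14 genes in each library (CPM, log axis) in WT, PN and PCN, 1 point per library. Scel, Adam28, Anxa8, Tgm1, Lgals3 and Oit1 are highest in WT, Dach1, Siah3, Fam167a, Chdh and Sox7 are highest in PCN, and Klf5 and Ctsb show the lower PN level of most genes of the chromosome.

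Other genes far below the shift against WT belong to several roles. Adam28 (68606027 to 68655842), which encodes a membrane-bound metalloproteinase, stood at 103, 117 and 124 CPM in WT, 2.31, 3.12 and 3.12 in PN and 6.98, 8.09 and 6.18 in PCN. The groups did not overlap, and the log2 fold changes were -5.32 ± 0.13, -4.02 ± 0.12 and 1.30 ± 0.19. Oit1 (8348937 to 8378754) stood at 23.5, 24.4 and 20.7 CPM in WT, 1.07, 1.0 and 1.48 in PN and 1.14, 0.918 and 0.752 in PCN. PN and PCN overlapped, and the log2 fold change between them was -0.34 ± 0.36. Pdlim2, which encodes an adaptor of the actin cytoskeleton, stood at 74.1 ± 14.5, 5.39 ± 0.334 and 8.02 ± 0.585 CPM. Fam25c, the least abundant gene of this group, stood at 7.57 ± 3.28, 1.22 ± 0.323 and 2.33 ± 0.798 CPM. Stab1, a scavenger receptor gene known from macrophages and sinusoidal endothelium, stood at 131 ± 7.35, 32.6 ± 3.78 and 63.0 ± 1.56 CPM. Cd68 also was highest in WT, and the part of macrophage RNA in the values of Stab1 and Adam28 was not tested.

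Among the 10 matrix and protease genes with values, 7 were called lower and none higher in PN against WT, 5 lower and 3 higher in PCN against WT, and 8 of 9 higher in PCN against PN, with medians of -0.73, -0.39 and 0.78. Ctsb, which encodes the lysosomal protease cathepsin B, stood at 700, 671 and 707 CPM in WT, 476, 442 and 457 in PN and 674, 694 and 693 in PCN. Its PN libraries lay apart from the 6 others, which overlapped, and its departures were -0.02, 0.01 and -0.02, among the smallest of the named genes. Mmp14, which encodes a membrane-anchored collagenase, stood at 185 ± 28.3, 63.0 ± 0.442 and 108 ± 2.19 CPM, and Extl3, a heparan sulphate enzyme gene, at 89.2 ± 5.17, 71.5 ± 4.23 and 98.7 ± 2.97 CPM. They lay on opposite sides of the shift in PN against WT, with departures of -0.99 and 0.25, and close to it in PCN against PN, with 0.18 and -0.14.

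The list of growth control and cell division genes had medians above those of the chromosome against WT, but not every member lay above. In PN against WT the members ran from -1.69 to 0.31. Of 17 in PN against WT, 7 were called lower, 1 higher and 9 neither, with a median of -0.06. Of 18 in PCN against WT, 11 were higher, 2 lower and 5 neither, with a median of 0.60. In PCN against PN all 18 were higher, from 0.40 to 0.94, with a median of 0.59, and all 18 lay within 0.5 of the chromosome median. On the whole chromosome, 92.6% were called higher and 84.9% lay within 0.5. Top2b, which encodes a DNA topoisomerase, stood at 255 ± 27.0, 196 ± 7.20 and 296 ± 18.8 CPM. Wapl, which releases cohesin from chromosomes, stood at 197 ± 15.2, 127 ± 2.81 and 201 ± 14.1 CPM, with PCN and WT overlapping. Ppp2r2a, a phosphatase subunit gene, stood at 190 ± 3.78, 121 ± 5.87 and 164 ± 7.31, and Kpna3, a nuclear import receptor gene, at 115 ± 6.56, 90.8 ± 2.17 and 124 ± 12.8 CPM. The tumour suppressors Rb1 and Lats2, also members, were chosen after their values were seen. Rb1, the retinoblastoma gene, stood at 62.6, 73.2 and 88.0 CPM in WT, 37.9, 42.3 and 45.6 in PN and 65.3, 62.3 and 57.2 in PCN. Lats2, a kinase of the Hippo pathway, stood at 9.55, 8.85 and 9.47 CPM in WT, 3.97, 2.18 and 2.49 in PN and 4.80, 6.31 and 4.51 in PCN. PN was lowest for both, and the log2 fold changes in PCN against PN were 0.55 ± 0.07 and 0.85 ± 0.22.

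All 4 genes of the DNA repair list were higher in PCN than in WT and in PN, with medians of 0.56 and 0.69. On the whole chromosome, 30.3% and 92.6% of the fitted genes were called higher. Against WT, 1 was lower in PN and 3 were not called, with a median of -0.17. Bap1, a deubiquitinase tumour suppressor gene, had 52.9 ± 0.745 CPM in WT organoids, 46.4 ± 0.814 in PN organoids and 64.0 ± 1.04 in PCN organoids. Parp2, which senses DNA breaks, stood at 25.2 ± 1.80, 20.6 ± 0.793 and 31.7 ± 1.44. Rnaseh2b, a subunit gene of the enzyme that removes ribonucleotides from DNA, stood at 15.5 ± 0.700, 16.2 ± 0.451 and 27.4 ± 2.00, and Apex1, an abasic site endonuclease gene, at 13.5 ± 2.48, 12.2 ± 0.695 and 23.4 ± 2.48 CPM. For the last pair, PN and WT overlapped and PCN lay above both. The list does not hold every repair gene of the chromosome. Outside it, Parg was not called in PCN against WT, at 0.18, and Ercc6 was called higher, at 0.44.

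The proteasome, interferon and cell death genes were higher in PCN than in PN in 8 of 8 cases, with a median of 0.63. So were 92.6% of the fitted chromosome 14 genes, and 28.0% of all genes tested. Against WT, 6 of 8 were lower in PN and none was higher, with a median of -0.46, and 1 was lower and 2 were higher in PCN, with a median of 0.15. The proteasome genes Psmb5, Psmc6 and Psmd6 rose by 0.35 ± 0.09, 0.43 ± 0.06 and 0.36 ± 0.05 between PN and PCN. Psme1, which encodes an interferon-inducible activator of the proteasome, stood at 53.0 ± 2.10, 27.7 ± 2.03 and 61.0 ± 4.19 CPM and rose by 1.14 ± 0.07, or 0.54 above the shift.

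Signalling genes had a median of -0.69 in PN against WT (13 of 16 lower, 1 higher, 2 neither), 0.03 in PCN against WT (5 of 18 lower, 4 higher, 9 neither) and 0.72 in PCN against PN (18 of 19 higher, 1 lower). Bmpr1a, a receptor gene for bone morphogenetic proteins, stood at 161 ± 14.7, 98.3 ± 7.81 and 152 ± 8.98 CPM, and the kinase genes Stk24 and Prkcd had departures in PCN against PN of 0.05 and -0.08. Dock9, which encodes an activator of the GTPase Cdc42, stood at 202 ± 35.5, 81.1 ± 5.77 and 135 ± 3.62 CPM. It lay 0.75 below the shift in PN against WT and 0.14 above it in PCN against PN.

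Cadps, Tnfrsf19, Fzd3 and Slc7a8 were called lower in PCN than in PN. Cadps (12372563 to 12823079), which encodes an activator of dense-core vesicle release, stood at 0.401, 0.544 and 0.994 CPM in WT, 11.9, 14.5 and 12.4 in PN and 5.10, 4.71 and 4.62 in PCN. The groups did not overlap. PN was 19.8 times above WT (4.30 ± 0.26), and PCN was below PN by 1.43 ± 0.14, the reverse of the chromosome. Tnfrsf19, a receptor gene of the tumour necrosis factor family, stood at 28.9, 26.5 and 34.9 CPM in WT, 66.6, 63.1 and 63.2 in PN and 39.3, 44.7 and 38.6 in PCN. Fzd3, a Wnt receptor gene, stood at 9.69 ± 1.99, 15.7 ± 0.495 and 11.5 ± 0.858 CPM. Both were highest in PN without overlap with PCN, and their log2 fold changes in PCN against PN were -0.66 ± 0.07 and -0.45 ± 0.11. Slc7a8, which encodes a transporter of neutral amino acids, stood at 121, 135 and 116 CPM in WT, 153, 150 and 153 in PN and 72.7, 71.2 and 67.0 in PCN. PCN was lowest there, at -1.11 ± 0.05 against PN and -0.82 ± 0.08 against WT.

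In all, 10 genes were not higher in PCN than in PN. Besides Cadps, Tnfrsf19, Fzd3, Slc7a8, Lgals3 and Oit1 they were Pck2 (-0.10 ± 0.07), Phyhip (-0.08 ± 0.09), the pseudogene Gm9800 (-0.01 ± 0.06) and Entpd4b. Of the 10, edgeR called Cadps, Tnfrsf19, Fzd3, Slc7a8 and Lgals3 lower. Gm9800 can share reads with its parent gene, and Entpd4b has a near-identical copy, so their counts are uncertain. Entpd4b stood at 1.60, 15.4 and 13.3 CPM in WT, 8.01, 18.7 and 0.687 in PN and 1.39, 0.976 and 0.967 in PCN. Its WT and PN libraries spread over the whole range of values, and its departure of -3.61 in PCN against PN rests on 2 PN libraries and was -2.52 without PN library 2.

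Dach1, Siah3, Fam167a, Chdh and Sox7 lay far above the shift in PCN. Dach1 (97786853 to 98169765), which encodes a transcriptional regulator of development, stood at 5.34, 5.17 and 8.08 CPM in WT, 3.50, 3.89 and 2.86 in PN and 59.1, 69.5 and 58.9 in PCN. The PCN libraries lay far above the other 6, and PN lay below WT. PCN was 18.3 times above PN (4.20 ± 0.11) and 10.1 times above WT (3.33 ± 0.15). Siah3 (75455982 to 75529708), of the SIAH ubiquitin ligase family, stood at 5.48, 4.76 and 4.70 CPM in WT, 8.30, 7.60 and 6.13 in PN and 48.7, 44.1 and 40.7 in PCN. Fam167a (63436394 to 63465498) stood at 4.61, 5.31 and 5.10 CPM in WT, 6.94, 5.89 and 5.23 in PN and 38.8, 36.2 and 36.8 in PCN. Their PCN levels were 6.08 and 6.21 times those in PN, with no overlap, and Fam167a overlapped between PN and WT. Chdh, which encodes mitochondrial choline dehydrogenase, stood at 26.9 ± 1.56, 25.8 ± 1.93 and 90.1 ± 2.09 CPM. Sox7 (63943673 to 63950732), which encodes a SOX transcription factor, stood at 23.3, 24.4 and 21.1 CPM in WT, 43.8, 43.8 and 44.8 in PN and 122, 135 and 114 in PCN. Unlike Dach1 and Chdh, it was above WT in PN as well, at 0.94 ± 0.09, and PCN rose over PN by 1.49 ± 0.06, or 0.88 above the shift.

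Hr, a corepressor gene of nuclear receptors, had the same order as Sox7, at 107 ± 18.5, 195 ± 4.89 and 395 ± 28.1 CPM. So did Cdhr1, a cadherin gene, at 9.73 ± 1.33, 16.1 ± 1.17 and 27.7 ± 2.28 CPM. The potassium channel gene Kcnk5, at 5.0 ± 0.503, 9.46 ± 1.03 and 12.01 ± 1.59 CPM, was above WT in both edited groups. It did not pass the threshold between PCN and PN, at 0.34 ± 0.13. Fermt2, which encodes the integrin activator kindlin-2, stood at 3.6 ± 0.203, 5.01 ± 0.198 and 10.7 ± 0.805 CPM. Also above the shift in PCN against PN, Phf11d at 1.81 ± 0.19 and Zcchc24 at 1.77 ± 0.18 were lower in PN than in WT and stood at 7.65 ± 0.217 and 10.6 ± 2.00 CPM in PCN.

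Most genes of the transcription and chromatin list, which includes Dach1, kept close to the shift between PCN and PN. Their calls in PN were 13 of 15 lower than WT and 2 neither, with a median of -0.52. In PCN against PN all 17 were higher, beside 92.6% on the whole chromosome. Their median there was 0.61, and 15 lay within 0.5 of the chromosome median. Their calls in PCN were 3 of 16 lower than WT, 8 higher and 5 neither, with a median of 0.19. Mbnl2, a splicing regulator gene, stood at 320 ± 16.3, 202 ± 6.04 and 273 ± 14.7 CPM, and Pbrm1, a subunit gene of a SWI/SNF remodelling complex, at 154 ± 20.4, 112 ± 6.02 and 187 ± 18.2. The transcription factor gene Elf1 stood at 153 ± 15.9, 94.7 ± 3.77 and 128 ± 1.62, and Tsc22d1, a regulator of growth factor responses, at 148 ± 9.51, 122 ± 3.6 and 185 ± 3.52 CPM. All 4 were lowest in PN, and their departures in PCN against PN were -0.17, 0.14, -0.17 and -0.00.

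Metabolic, mitochondrial and transport genes had a lower median than the chromosome in PN, with 20 of 23 called lower, 1 higher, 2 neither and a median of -0.98 against -0.57. In PCN against WT, 14 of 22 were lower, 3 higher and 5 neither, with a median of -0.50, and in PCN against PN, 20 of 23 were higher, 1 lower and 2 neither, with a median of 0.52. Ghitm, which encodes a protein of the inner mitochondrial membrane, stood at 438 ± 15.7, 221 ± 4.09 and 341 ± 7.51 CPM, and its departure in PCN against PN was 0.02. Ero1l, which encodes the oxidase that forms disulphide bonds in the endoplasmic reticulum, stood at 1651, 1647 and 2021 CPM in WT, 349, 342 and 303 in PN and 632, 575 and 448 in PCN. It lay 1.85 below the shift in PN against WT and 0.14 above it in PCN against PN. Tkt, which encodes transketolase of the pentose phosphate pathway, stood at 2284 ± 103, 1037 ± 41.9 and 1259 ± 60.5 CPM, and the esterase gene Esd at 1608 ± 30.2, 620 ± 24.5 and 724 ± 20.4. Their log2 fold changes between PN and PCN were under the chromosome median, at 0.28 ± 0.05 and 0.22 ± 0.04.

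**Figure D5:**
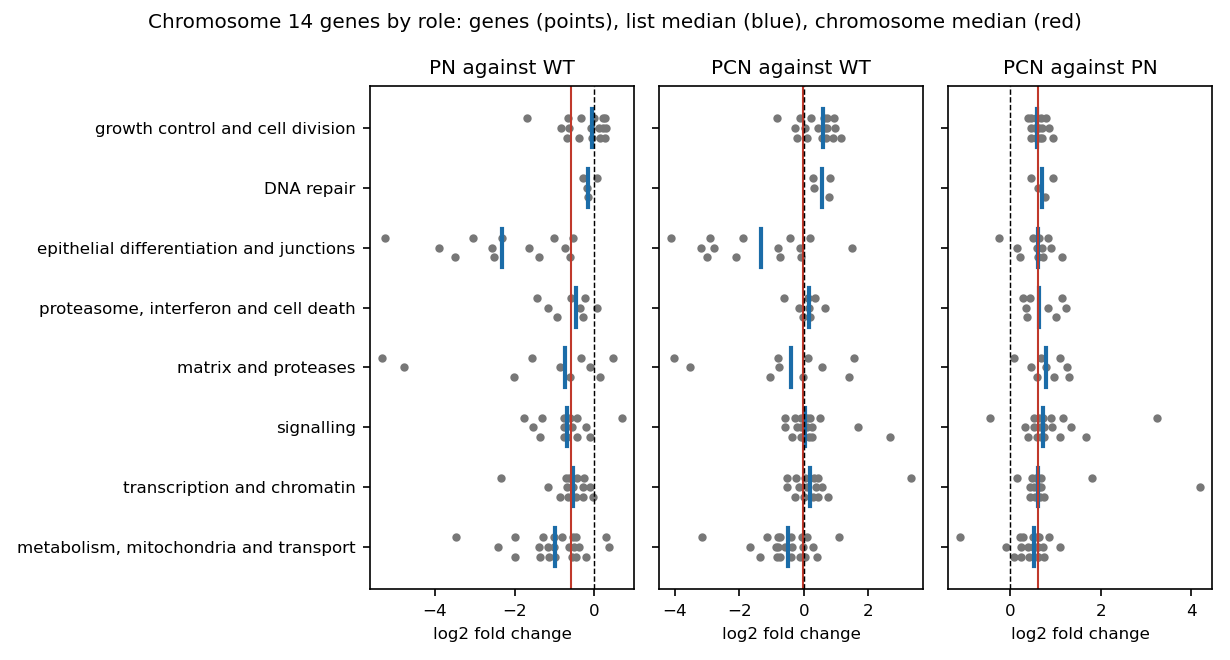
Log2 fold change (horizontal axes) of the chromosome 14 genes in 8 role lists in the 3 comparisons, with the median of each list (blue) and of the chromosome (red). List medians run from -2.31 to -0.06 in PN against WT and from 0.52 to 0.78 in PCN against PN.

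The 8 role lists thus spread widely against WT and little between PCN and PN. Genes of the reference autosomes also spread less between PCN and PN. Their interquartile range was 0.41 there, against 1.28 in PN against WT and 1.31 in PCN against WT. Medians of the lists are as follows. The list medians ran from -2.31 to -0.06 in PN against WT, from -1.33 to 0.60 in PCN against WT and from 0.52 to 0.78 in PCN against PN.

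Among genes open to the naming rule given below, the 8 most abundant per kb of gene length in WT moved differently between PN and PCN. The protein-coding 2610528A11Rik, left out for its symbol, stood at 504 CPM per kb in WT. Its log2 fold changes were -2.90 in PN and -2.77 in PCN against WT. Ero1l (335 CPM per kb in WT) and Itm2b (522) were up by 0.74 ± 0.15 and 0.58 ± 0.04, Tkt (311) and Esd (478) by the smaller values given above, and Lgals3 (167) was lower in PCN. Tpt1, which encodes the translationally controlled tumour protein, stood first at 1310 CPM per kb in WT, 579 in PN and 721 in PCN. In CPM its libraries were at 3153, 2907 and 3290 in WT, 1394, 1351 and 1388 in PN and 1662, 1802 and 1686 in PCN. The groups did not overlap, and PCN was above PN by 0.32 ± 0.04, a departure of -0.28. The ribosomal protein genes Rpl15 and Rps24, at 401 and 212 CPM per kb in WT, rose by 0.31 ± 0.05 and 0.36 ± 0.04. Tpt1, Rpl15 and Rps24 have pseudogene copies that can share their reads, so their levels are uncertain.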

How the data were processed

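The deposited raw counts, 1 per gene and library, are the authors' own, per the file headers. Dividing a count by a size factor of its library gives the authors' normalized signal, as the values show. FPKM, by the authors too, followed from the count, the deposited gene length and the library total. Each row also has the authors' p-value, plain and adjusted, per the file headers. CASAVA, DESeq and the builds GRCm38 and mm10 are named in the submitters' processing notes. For the aligner and the counting method, including strand use, the sources used here give nothing, so genes with overlapping, antisense or near-identical partners are uncertain.

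Library totals were recovered from counts, FPKM and lengths, and the numbers of genes the authors adjusted over (17165, 17300 and 14758) from their adjusted p-values. Each pair was fitted on all its genes with counts in both groups, by edgeR 4.0.16 (R 4.3.3; robust quasi-likelihood F test, filterByExpr, totals as library sizes), and adjusted by Benjamini-Hochberg over those numbers, with a threshold of 0.05. The procedure was tested on simulated data. Per-library shifts used log2 of CPM with a pseudocount of 0.5. Alternatives were the authors' size factors, TMM, DESeq2 1.42.0, other filters, gene sets and references, and leaving out each library. Genes were named by a rule: protein-coding, values in all 9 libraries, at least 5 CPM in the highest group and no predicted-gene symbol, then the 8 largest departures of each sign against WT, the 6 of each sign in PCN against PN, the 8 most abundant per kb in WT and up to 4 of the highest CPM per role list. Of the genes it names, 1 is not reported here. Genes named outside it are runs, genes near the threshold, those not higher in PCN, and Rb1, Lats2, Parg and Ercc6, chosen after their values were seen. Members and lists were chosen with earlier results of these data known.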

Additional observations from a re-analysis of the deposited data

How the results depend on the processing

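The direction of the shift in PN against WT and in PCN against PN held under each alternative run, and the counts of calls and of departures over 1 stayed within 1.5 times. In PN against WT the shift, -0.60, was -0.52 over genes with counts in all 9 libraries, -0.69 at 5 CPM or more, -0.66 over protein-coding genes, -0.57 with no filter on low counts, and -0.43 over genes in both other tables, which was chosen after seeing the data. In PCN against WT the shift, -0.02, was 0.10 with chromosome 12 in the reference, -0.082 at 5 CPM or more and -0.091 over protein-coding genes, and between -0.031 and 0.0123 without 1 library. Over genes outside the pair's own table, which lie near 0 by construction, it was -0.077 in PN against WT and 0.093 in PCN against PN. The range of bin medians, 0.23, 0.43 and 0.14, was 0.132, 0.185 and 0.0463 in bins of 10 Mb. There the bins before 20 Mb and from 80 Mb on fall under 20 genes and drop out, so both ends of the chromosome are missing. With a replicate block the shifts were -0.60, -0.02 and 0.60 and the calls 284, 201 and 327, against 280, 212 and 329. Same-numbered libraries correlated at 0.17, 0.09 and 0.19 in PN and WT and below 0 in the other pairs, so the numbers were not taken to pair samples. Of 264 departures of named genes without 1 library, none changed sign and 1 moved by over 1.5 times, for Entpd4b. The tables hold only called genes, so unlisted genes of chromosome 14 were not analysed here.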
